A study of Mus musculus with 5 samples.

Results

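The genes described here are 10 genes of the endothelium and its ligand VEGF-A: *Vegfa*, *Kdr*, *Flt1*, *Tek*, *Tie1*, *Pecam1*, *Cdh5*, *Esam*, *Emcn* and *Nfatc1*. They were chosen by name, as markers and regulators of endothelial and endocardial cells, among 13486 genes with at least 1 tag in the 5 libraries. Tag-seq, a form of digital gene expression, was run on mouse heart regions dissected at E10.5 (Theiler stage 17). The wild-type embryos were of the C57BL/6 strain and gave 1 library each from the atrioventricular canal (AVC), the outflow tract (OFT), the atria and the ventricles. The remaining library came from the AVC of *Twist1* knockout embryos of the ICR strain, so strain and genotype differ together and cannot be told apart. Each library was made from pooled tissue of at least 3 litters and each condition has 1 library, so no value has a replicate check and every test compares libraries, not conditions. The tissue was dissected whole and not sorted, so each library mixes the endothelium with the other cells of its region.

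Endothelial cells line the vessels, and the endocardium is the endothelium of the heart. In the AVC and the OFT part of the endocardium leaves the lining and becomes the mesenchyme of the valve cushions, while in the chambers it stays a lining over the trabeculae. VEGF-A acts through the receptor tyrosine kinases KDR and FLT1 on these cells, the angiopoietins act through TEK, and the calcineurin-dependent factor NFATC1 is the classic marker of the endocardium of the forming valves.

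Tag-seq uses the enzyme NlaIII, which cuts cDNA at CATG, and reads the 17 bases that follow the site. Each distinct sequence is a tag type, and a tag type was deposited for a library only when it was read more than 5 times. The 10 genes were found through 50 tag types that match 1 gene in sense, of which 36 lie in a 3′ UTR, 13 in coding sequence and 1 in a 5′ UTR. The AVC library listed 32 of these tag types, the OFT 34, the atria 13, the ventricles 15 and the *Twist1* null AVC 40, and 10 of the 50 were listed in every library. The libraries as wholes differ in the same direction. In all, 58407 tag types were listed for the AVC, 56744 for the OFT, 35109 for the atria, 32822 for the ventricles and 79271 for the null. Fewer tag types in the chambers are thus not particular to these genes. The following tag types carry most of the values below. The NlaIII site is in capitals, and positions are on GRCm38 from the GENCODE M21 annotation.
Vegfa, site of the distal 3′ end, chr17:46018088-46018108, minus strand, 3′ UTR: CATGatagtctacaaaagcac
Vegfa, site shared with a shorter 3′ end, chr17:46018704-46018724, minus strand, 3′ UTR: CATGaaggaagaggagactct
Kdr, site nearest the 3′ end, chr5:75932985-75933005, minus strand, 3′ UTR: CATGgaatatgcagctatata
Flt1, long transcript, chr5:147561641-147561661, minus strand, 3′ UTR: CATGatgaatgtatttcacat
Flt1, short transcript, chr5:147639124-147639144, minus strand, coding: CATGtcaaacattaaaggact
Tek, site nearest the 3′ end, chr4:94874828-94874848, plus strand, 3′ UTR: CATGtattgtaaaattttgta
Tie1, site nearest the 3′ end, chr4:118471240-118471260, minus strand, 3′ UTR: CATGttactaacaccctgttt
Tie1, next site, chr4:118471244-118471264, minus strand, 3′ UTR: CATGcatgttactaacaccct
Pecam1, site nearest the 3′ end, chr11:106654491-106654511, minus strand, 3′ UTR: CATGccgaaggcccaaagaag
Pecam1, next site, chr11:106654948-106654968, minus strand, 3′ UTR: CATGttgggtatacagagact
Cdh5, site nearest the 3′ end, chr8:104144449-104144469, plus strand, 3′ UTR: CATGagatgtactgtaccttt
Esam, coding site, chr9:37537725-37537745, plus strand: CATGggtgctgtgcctgtgat
Esam, site at the transcript end, chr9:37538308-37538319, plus strand, 3′ UTR: CATGgacaagaaaaaaaaaaa
Emcn, site at the end of 1 of 2 transcripts, 3′ UTR, chr3:137431056-137431069, plus strand: CATGctcaacatcaaaaaaaa

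These sequences bear on how firmly each level can be read. The *Esam* tag type at the transcript end holds only 8 bases of the transcript after the site, and the *Emcn* one holds 10, with the poly(A) tail making up the rest. The *Tie1* tag types come from a double site, CATGCATG, and overlap. All 5 *Tek* tag types begin with T after the site, and tags beginning with T made up 34.6% of the one-gene tags in the *Twist1* null library against 15.4% for the AVC. Without the haemoglobin genes these shares were 33.8 and 15.3%, with 16.3% for the OFT, 19.6% for the atria and 21.2% for the ventricles.

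Levels are given as tags per 1000000 deposited tags (TPM), summed over the tag types of a gene, and intervals are exact 95% Poisson intervals for counting error only. The libraries hold between 4223810 tags (ventricles) and 12977237 tags (*Twist1* null AVC), and a tag type needed 1.42 TPM for the ventricles but 0.462 TPM for the null library to be listed. *Twist1* itself stood at 918 TPM for the AVC, 299 for the OFT, 63.4 for the atria, 55.9 for the ventricles and 4.55 in the library labelled knockout. Haemoglobin tags made up 21.5% of the atria library and 0.242% of the AVC library, with the other libraries between. The median gene was 1.23 higher on the log2 scale in the AVC than in the summed atria and ventricles, 1.07 higher in the OFT, and 0.16 lower in the null than in the wild-type AVC (-0.16). TMM normalization, which scales libraries so that the bulk of genes does not shift, left medians of 0.28, 0.21 and 0.08, and ratios are given under both scalings where a call or a direction depends on it.

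Against the chambers, *Vegfa*, *Pecam1*, *Cdh5*, *Flt1* and *Nfatc1* were higher in the AVC and again in the OFT, with *Vegfa* showing ratios of 63.5 and 37.3. *Tek*, *Tie1*, *Kdr* and *Esam* did not pass the test in either comparison. *Emcn* was not listed in the AVC and was lower there than in the chambers. In the AVC comparison 5 of the 10 genes were called higher and 1 lower by edgeR's exact test at an unadjusted p under 0.05, where 43.4% of 12503 genes were called higher and 8.12% lower. In the OFT comparison 5 were called higher and 0 lower, where 40.6% of 12451 genes were called higher and 8.88% lower. A large share of all genes was thus called higher, and 5 of 10 members stands near that share. With TMM normalization the AVC count was 3 higher and 1 lower, against 25.6 and 17.5% of all genes, and the OFT count was 5 higher and 1 lower, against 26.2 and 17.7%. Over the 10 genes the AVC comparison had a median log2 ratio of 1.50 and the OFT comparison one of 1.57 (0.55 and 0.71 with TMM). Both comparisons use the same atria and ventricles libraries and are not independent. In tissue that mixes cell types, a difference in the number of endothelial cells and one in RNA per cell cannot be told apart.

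Between the *Twist1* null and the wild-type AVC, only *Emcn* passed the test among the 10 genes. The count was 1 higher and 0 lower, where 11.9% of 12963 genes were called higher and 12.7% lower, and it was the same with TMM normalization, where 14.9 and 9.36% were called. The median log2 ratio of the members was 0.09 (0.33 with TMM).

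**Figure D1:**
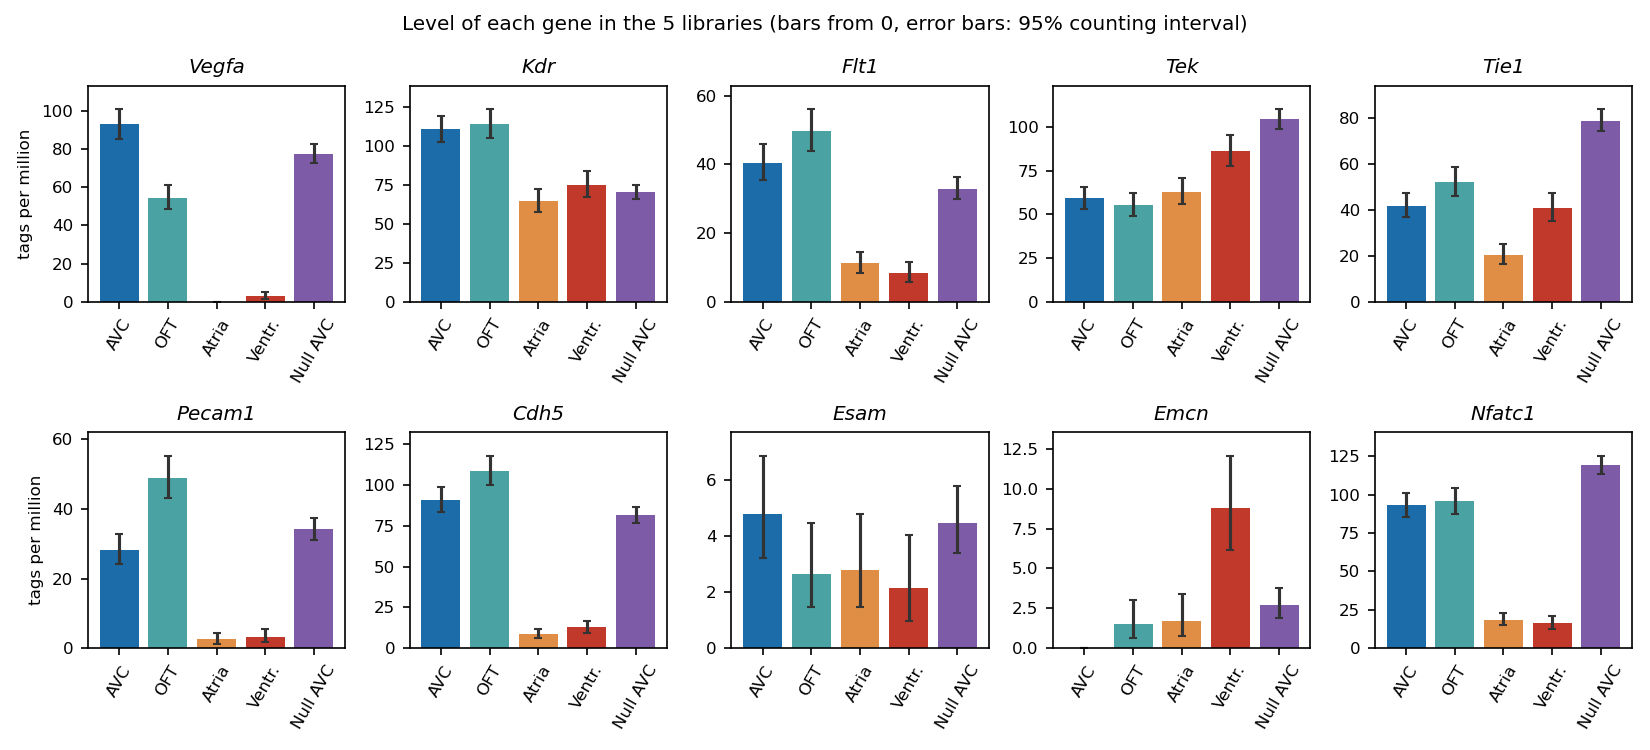
Level of each of the 10 genes in TPM (vertical axis, from 0) in the 5 libraries (horizontal axis). Bars are single libraries and error bars are exact 95% Poisson intervals for counting error. No bar is drawn where no tag was listed, which was the case for *Vegfa* in the atria and *Emcn* in the AVC. *Vegfa*, *Flt1*, *Pecam1*, *Cdh5* and *Nfatc1* are low in atria and ventricles, *Kdr* and *Tek* are not.

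*Vegfa* encodes VEGF-A, the main growth factor for endothelial cells, and is made largely by the cells around them. Its level was 92.8 TPM for the AVC (interval 85.3 to 101), 54.5 for the OFT (48.4 to 61.2), 3.08 for the ventricles (1.64 to 5.26) and 77.4 in the *Twist1* null AVC (72.7 to 82.3). In the atria none of its tag types was listed. The AVC, OFT and null libraries thus stand far above both chambers. Ranked among the genes found in its own library, *Vegfa* was at percentile 87.6 for the AVC, 78.9 for the OFT and 86.5 for the null, and at percentile 16.0 for the ventricles. The AVC level was 63.5 times that of the summed chambers (counting interval 36.8 to 120, exact p = 1.61e-10), and the OFT level 37.3 times (21.4 to 70.8, exact p = 1.05e-08). With 5 tags allowed in the atria for each *Vegfa* tag type found in any library, the AVC was at least 17.3-fold higher than the atria. The null and the wild-type AVC did not pass the test (ratio 0.833, interval 0.751 to 0.926, exact p = 0.718).

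Most *Vegfa* tags came from sites of the 3′ UTR. The distal site gave 395 tags for the AVC, 212 for the OFT, 0 for the atria, 13 for the ventricles and 531 for the null. The second site, which a transcript with a shorter 3′ end also holds, gave 163, 68, 0, 0 and 460 tags in the same order. The distal site thus supplied 70.0% of the *Vegfa* tags in the AVC (interval 66.1 to 73.8), 73.9% for the OFT (68.4 to 78.9) and 52.9% for the null (49.7 to 56.0). The intervals of the null and the wild-type AVC do not overlap, and the tags of both sites begin with A. The share of the site nearest the 3′ end was lower in the null than in the AVC for some other members too, but not for all. It was 66.1 against 77.9% for *Kdr*, 86.3 against 91.8% for *Cdh5* and 26.2 against 39.0% for *Tie1*, whose sites overlap. For *Tek* it was 94.0 against 95.6%, with overlapping intervals. In the long *Flt1* transcript the share was nearly equal, with 210 of 237 tags for the null and 128 of 144 for the AVC. The cause of these shifts was not tested.

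*Kdr* encodes VEGFR2, the receptor that carries most VEGF-A signal in endothelial cells. It stood at 111 TPM for the AVC (interval 103 to 119), 114 for the OFT (105.3 to 123.8), 64.5 for the atria (57.4 to 72.2), 75.1 for the ventricles (67.0 to 83.8) and 70.3 for the null (65.8 to 75.0). The 3 lower libraries lie close together, with overlapping intervals, and the AVC and the OFT lie above them. The AVC was 1.59 times the chambers (interval 1.43 to 1.78, exact p = 0.356) and the OFT 1.64 times (1.47 to 1.84, exact p = 0.323). Under TMM both log2 ratios turned below 0, to -0.28 and -0.14, so no direction can be given for *Kdr*. The null against the wild-type AVC gave a ratio of 0.634 (0.574 to 0.702, exact p = 0.367).

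In the chambers *Kdr* was read almost wholly at the site nearest the 3′ end, with 301 of 301 tags for the atria and 311 of 317 for the ventricles. That site gave 524 of 673 tags for the AVC, 504 of 602 for the OFT and 603 of 912 for the null. The third site from the end added 108 AVC tags, 85 OFT tags and 162 null tags and none in either chamber. Counted at the 3′-most site, *Kdr* stood at 86.2 TPM for the AVC and 68.8 in the summed chambers.

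*Flt1* encodes VEGFR1, which binds VEGF-A tightly and signals weakly. It stood at 40.5 TPM for the AVC (interval 35.6 to 45.9), 49.7 for the OFT (43.9 to 56.1), 11.1 for the atria (8.32 to 14.6), 8.29 for the ventricles (5.77 to 11.5) and 33.0 for the null (29.9 to 36.3). Both cushion regions and the null AVC were above both chambers without overlap of the intervals. The AVC was 4.14 times the chambers (3.23 to 5.35, exact p = 0.00797) and the OFT 5.08 times (3.97 to 6.55, exact p = 0.00238). With TMM the AVC call was lost (log2 ratio 1.10, exact p = 0.145) and the OFT call stayed (1.49, exact p = 0.0491). The null and the wild-type AVC did not pass the test (ratio 0.815, 0.695 to 0.957, exact p = 0.691).

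The 9 *Flt1* tag types fall on separate transcripts. One transcript codes for a protein of 1333 residues, the membrane receptor, and the other for 688 residues, the soluble form, which keeps the ligand-binding part and lacks the kinase. All 6 tag types of the short transcript lie within introns of the long one, so tags from unspliced long transcripts would be counted with the short one. The long transcript gave 144 of 246 tags for the AVC, 146 of 262 for the OFT, 17 of 52 for the atria, 9 of 35 for the ventricles and 237 of 428 for the null. As shares these are 58.5% (exact binomial interval 52.1 to 64.8), 55.7% (49.5 to 61.8), 32.7% (20.3 to 47.1), 25.7% (12.5 to 43.3) and 55.4% (50.5 to 60.1). The intervals of both chambers lie below those of the AVC, the OFT and the null, but this rests on 1 tag type of the short transcript. That tag type begins with T and supplied most chamber tags of the short transcript, with 24 tags for the atria and 26 for the ventricles, while its other tag types gave 11 and 0 tags there against 92 for the AVC and 106 for the OFT. Without it the long share was 60.7% for the atria (17 of 28 tags, interval 40.6 to 78.5) and 100% for the ventricles (9 of 9, 66.4 to 100), against 61.0% for the AVC (54.5 to 67.3), 57.9% for the OFT (51.6 to 64.1) and 68.1% for the null (62.9 to 73.0), so the chambers no longer lie below.

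**Figure D2:**
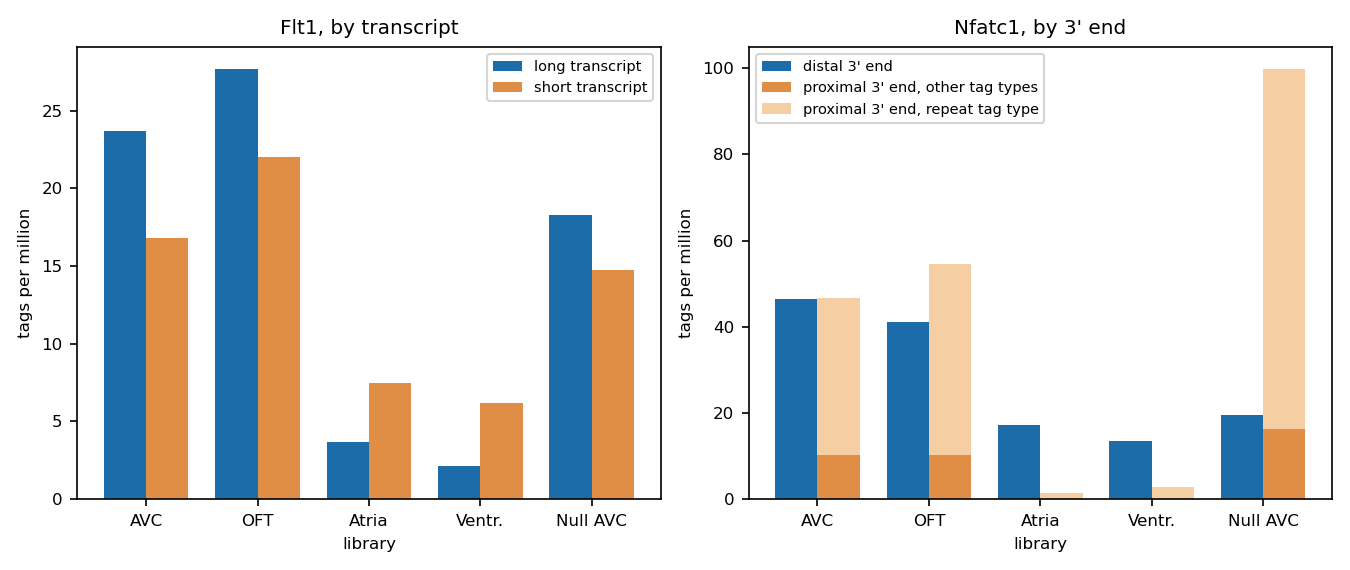
Left, *Flt1* tags of the long transcript (membrane receptor) and of the short transcript in TPM for each library. Right, *Nfatc1* tags by 3′ end in TPM, with the proximal end split into the repeat tag type (light) and the other tag types (dark). The long *Flt1* transcript exceeds the short one in the AVC, the OFT and the null but not in the chambers, where without the short tag type that begins with T the long form has 17 against 11 tags (atria) and 9 against 0 (ventricles), and the proximal *Nfatc1* end reaches 99.9 TPM for the null, mostly through the repeat tag type.

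*Tek* encodes TIE2, the receptor of the angiopoietins. Its level was 59.3 TPM for the AVC (interval 53.3 to 65.7), 55.2 for the OFT (49.1 to 62.0), 63.0 for the atria (56.0 to 70.6), 86.2 for the ventricles (77.6 to 95.5) and 104.6 for the null (99.1 to 110). The chambers were at or above the AVC and the OFT, but no pair of neighbours in the order of the 5 levels was set apart by the exact test. The AVC was 0.801 times the chambers (0.702 to 0.912, exact p = 0.662) and the OFT 0.746 times (0.648 to 0.858, exact p = 0.562), and with TMM the log2 ratios were -1.27 and -1.28 (exact p = 0.0842 and 0.0834). The null was 1.76 times the wild-type AVC (1.57 to 1.99, exact p = 0.261). The site nearest the 3′ end supplied 344 of 360 *Tek* tags in the AVC, 272 of 291 for the OFT, all 294 for the atria, all 364 for the ventricles and 1276 of 1357 for the null. Since all *Tek* tags begin with T, the ratio could not be taken without such tags, and the part of the first base in it was not tested.

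*Tie1* encodes the related orphan receptor that acts together with TIE2. It stood at 41.8 TPM for the AVC (interval 36.8 to 47.3), 52.2 for the OFT (46.2 to 58.8), 20.6 for the atria (16.7 to 25.1), 41.0 for the ventricles (35.1 to 47.5) and 79.1 for the null (74.3 to 84.1). The intervals of the ventricles and the AVC overlap, and the atria are lowest. The AVC was 1.38 times the chambers (1.16 to 1.65, exact p = 0.527) and the OFT 1.73 times (1.45 to 2.05, exact p = 0.287), with log2 ratios below 0 under TMM (-0.49 and -0.07). The null was 1.89 times the wild-type AVC (1.65 to 2.18, exact p = 0.210). The 2 tag types of the double site were split differently between libraries. The tag type that begins with T gave 99 tags for the AVC, 81 for the OFT, 26 for the atria, 106 for the ventricles and 269 for the null, and the one 4 bases upstream gave 155, 187, 70, 67 and 746. The upstream one thus made up 61.0% of *Tie1* tags in the AVC (54.7 to 67.1), 38.7% for the ventricles (31.4 to 46.4) and 72.7% for the null (69.9 to 75.4). Without tags beginning with T, *Tie1* passed the test as higher in the null (log2 ratio 1.52, exact p = 0.0410).

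*Pecam1* encodes CD31, an adhesion molecule of endothelial cells and platelets. It stood at 28.1 TPM for the AVC (interval 24.1 to 32.7), 49.0 for the OFT (43.2 to 55.3), 2.57 for the atria (1.33 to 4.49), 3.31 for the ventricles (1.81 to 5.56) and 34.1 for the null (31.0 to 37.5). Both chambers were close to the listing limit, at percentiles 15.0 (atria) and 17.6 (ventricles) of the genes found, against 61.2 for the AVC and 76.6 for the OFT. The AVC was 9.62 times the chambers (6.35 to 15.2, exact p = 8.77e-05) and the OFT 16.7 times (11.2 to 26.1, exact p = 1.69e-06). Both calls held with TMM (log2 ratios 2.31 and 3.20). The null and the wild-type AVC did not pass the test (ratio 1.21, 1.01 to 1.46, exact p = 0.709). The tag types within this sum differed. The site nearest the 3′ end gave 155 tags for the AVC and 197 for the null, which is 25.5 and 15.2 TPM, while the next site, whose tag begins with T, gave 8 and 246. That second site made up 4.68% of *Pecam1* tags in the AVC (2.04 to 9.01), 6.20% for the OFT (3.59 to 9.88) and 55.5% for the null (50.8 to 60.2).

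*Cdh5* encodes VE-cadherin, the cadherin of endothelial junctions. It stood at 90.9 TPM for the AVC (interval 83.4 to 98.8), 109 for the OFT (100 to 118), 8.57 for the atria (6.12 to 11.7), 12.8 for the ventricles (9.60 to 16.7) and 81.8 for the null (76.9 to 86.8). Its 3 tag types include none that begins with T. The AVC was 8.59 times the chambers (6.89 to 10.8, exact p = 8.72e-05) and the OFT 10.3 times (8.26 to 12.9, exact p = 2.71e-05), and both calls held with TMM (2.15 and 2.50 on the log2 scale). The null and the wild-type AVC did not pass the test (ratio 0.900, 0.811 to 0.999, exact p = 0.835). The site nearest the 3′ end alone gave 507 tags for the AVC, 494 for the OFT, 40 for the atria, 54 for the ventricles and 916 for the null, so the gap to the chambers is present at a single site that every library lists.

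*Esam* encodes an immunoglobulin-type adhesion molecule of endothelial junctions and platelets. It was near the listing limit throughout, at 4.77 TPM for the AVC (interval 3.20 to 6.86), 2.66 for the OFT (1.45 to 4.46), 2.79 for the atria (1.48 to 4.76), 2.13 for the ventricles (0.974 to 4.04) and 4.47 for the null (3.39 to 5.78). No neighbours in this order were set apart. The coding site gave 20 tags for the AVC, 14 for the OFT, 58 for the null and none in either chamber. The poly(A)-rich tag type gave 9 tags for the AVC, 13 for the atria, 9 for the ventricles and none in the OFT or the null. The *Esam* level in the chambers thus rests wholly on the tag type with 8 transcript bases.

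*Emcn* encodes endomucin, a sialomucin on the surface of venous and capillary endothelium and of endocardium. It had 0 listed tags in the AVC, 8 for the OFT (1.52 TPM, interval 0.656 to 2.99), 8 for the atria (1.71, 0.740 to 3.38), 37 for the ventricles (8.76, 6.17 to 12.1) and 35 for the null (2.70, 1.88 to 3.75). The ventricles were highest and were set apart from the null, the next in order (exact p = 0.0403). The tag type with 10 transcript bases gave all 8 tags of the OFT and all 8 of the atria. It also gave 20 of the 37 ventricle tags and 10 of the 35 null tags. With 5 tags allowed in the AVC for each of the *Emcn* tag types, 15 tags or 2.47 TPM in all, the AVC was at least 2.05-fold lower than the chambers (exact p = 1.16e-05), and the null was at least 1.09-fold higher than the AVC (exact p = 0.000865, adjusted p = 0.0178 in edgeR's exact test with Benjamini-Hochberg adjustment). The null call lies close to the listing limit, since its 35 tags are spread over 3 tag types of 10 to 14 tags in the deepest library. At equal depth (all libraries thinned to 4223810 tags) the null call was lost (exact p = 0.0619). The OFT was 3.33-fold lower than the chambers (exact p = 0.0697), which became a call with TMM (log2 ratio -2.57, exact p = 0.00637).

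*Nfatc1* encodes the transcription factor of the valve endocardium. It stood at 93.0 TPM for the AVC (interval 85.5 to 101), 95.7 for the OFT (87.5 to 104), 18.6 for the atria (14.9 to 23.0), 16.3 for the ventricles (12.7 to 20.7) and 119 for the null (113 to 125). The AVC was 5.30 times the chambers (4.43 to 6.37, exact p = 0.00173) and the OFT 5.45 times (4.55 to 6.57, exact p = 0.00147). With TMM the AVC log2 ratio was 1.45 and its call was lost (exact p = 0.0514), while the OFT call stayed (1.59, exact p = 0.0338). The null and the wild-type AVC did not pass the test (ratio 1.28, 1.16 to 1.42, exact p = 0.619).

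Like *Flt1*, *Nfatc1* has separate 3′ ends. A proximal end belongs to transcripts for the shorter proteins of 703 and 717 residues, and a distal end to those of 813 to 939 residues. The proximal sites lie upstream of the distal ones within the gene. Whether unspliced transcripts of the distal end added to the proximal tags was not tested. Tags of the distal end stood at 46.4 TPM for the AVC, 41.0 for the OFT, 17.1 for the atria, 13.5 for the ventricles and 19.4 for the null. Tags of the proximal end stood at 46.6, 54.7, 1.50, 2.84 and 99.9 TPM in the same order. The distal end was thus lower in the null than in the wild-type AVC while the proximal end was higher, and the proximal end made up 8.05% of tags in the atria and 83.7% for the null. Most proximal tags belong to 1 tag type that repeats a 3-base unit, begins with T and gave 221, 234, 7, 12 and 1085 tags. Without it the proximal end stood at 10.2 TPM for the AVC, 10.3 for the OFT and 16.3 for the null and was not listed in the chambers, and the whole gene stood at 56.6 TPM for the AVC and 35.8 for the null. The sign of the null ratio turned with it, to a log2 ratio of -0.66 (exact p = 0.365).

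**Figure D3:**
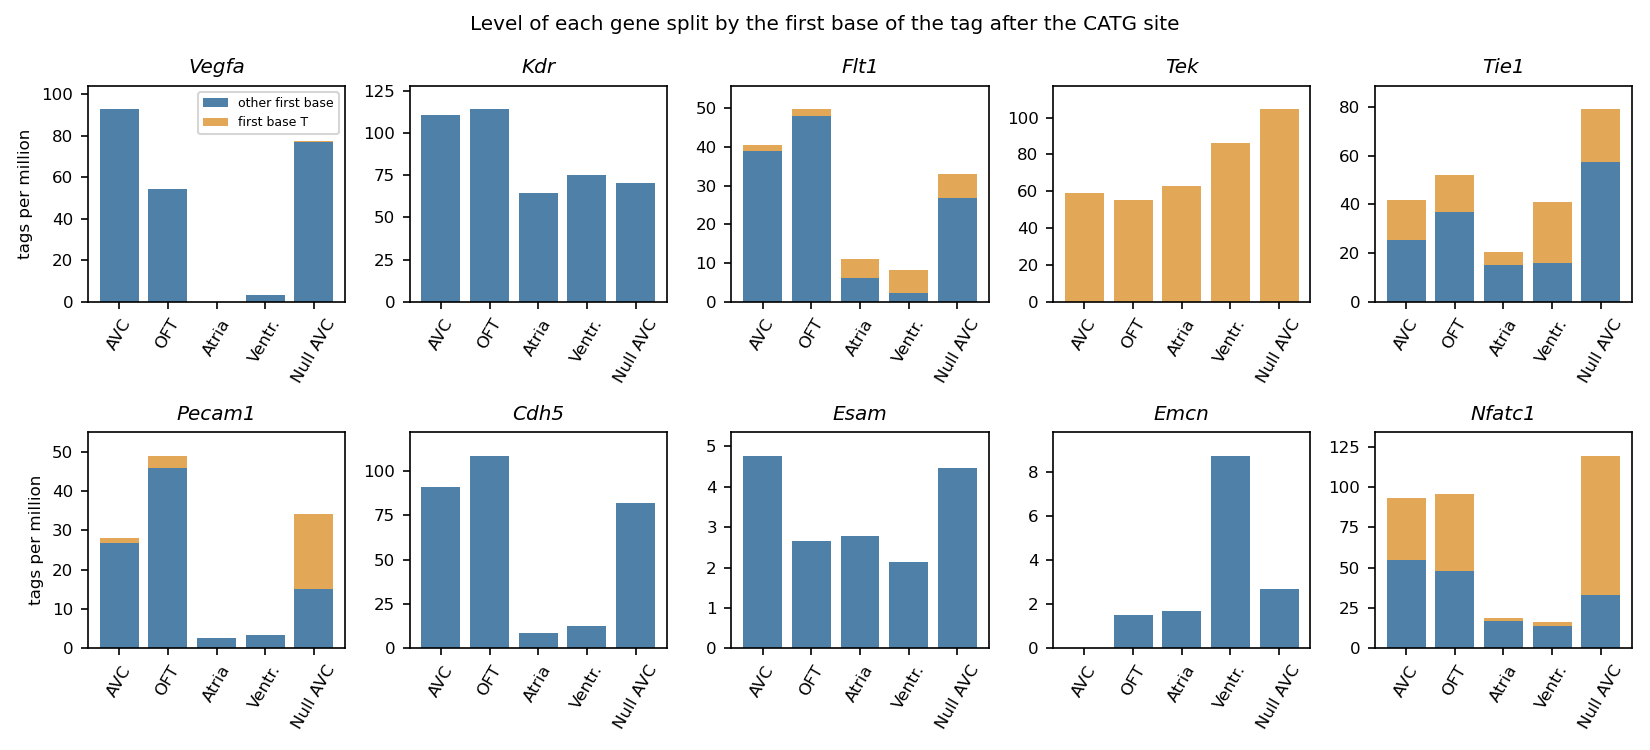
Level of each gene in TPM (vertical axis) in the 5 libraries, split by whether the tag begins with T after the NlaIII site. *Tek* consists of tags beginning with T, *Cdh5* and *Kdr* hold none, and in the null such tags make up 55.5% of *Pecam1* and 72.5% of *Nfatc1*.

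The order of the 5 libraries was compared gene by gene. Of the 40 pairs of neighbours in these orders, 8 were set apart by the exact test at p under 0.05, 6 of them also with TMM. The counting intervals of 16 pairs did not overlap. The like share over all genes was not computed, so this count is no result about these genes. The all-gene shares that follow are for fixed pairs of libraries. Neighbours are instead the libraries closest in level for each gene, so the 8 of 40 cannot be set against these shares. Over all genes the same test set apart 52.5% between atria and AVC, 51.4% between atria and OFT, 48.9% between ventricles and AVC and 47.6% between ventricles and OFT. For the null this was 47.4% against the atria, 43.6% against the ventricles, 28.9% against the OFT and 24.6% against the AVC, and between ventricles and atria it was 20.1%. Between OFT and AVC it was 12.6%, and *Emcn* was the member that passed (exact p = 0.0254, adjusted p = 0.257 in edgeR's exact test with Benjamini-Hochberg adjustment), while its OFT level of 1.52 TPM lies below what the missing AVC tag types allow, so no fold can be given. For *Pecam1*, *Cdh5*, *Flt1* and *Nfatc1* the one step set apart was that between the lowest of the OFT, AVC and null levels and the higher of the chamber levels (exact p = 0.000298, 0.000626, 0.0416 and 0.00266), and with TMM it was lost for *Flt1* and *Nfatc1*. *Vegfa* had a step between the OFT and the ventricles (exact p = 2.84e-06) and another between the ventricles and the atria (exact p = 0.00278). The latter sets 13 ventricle tags against an atria level that was not listed. Since 5 tags for each *Vegfa* tag type would make 5.36 TPM in the atria, above the ventricle level of 3.08 TPM, no fold can be given. *Tek*, *Tie1*, *Kdr* and *Esam* had no step.

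**Figure D4:**
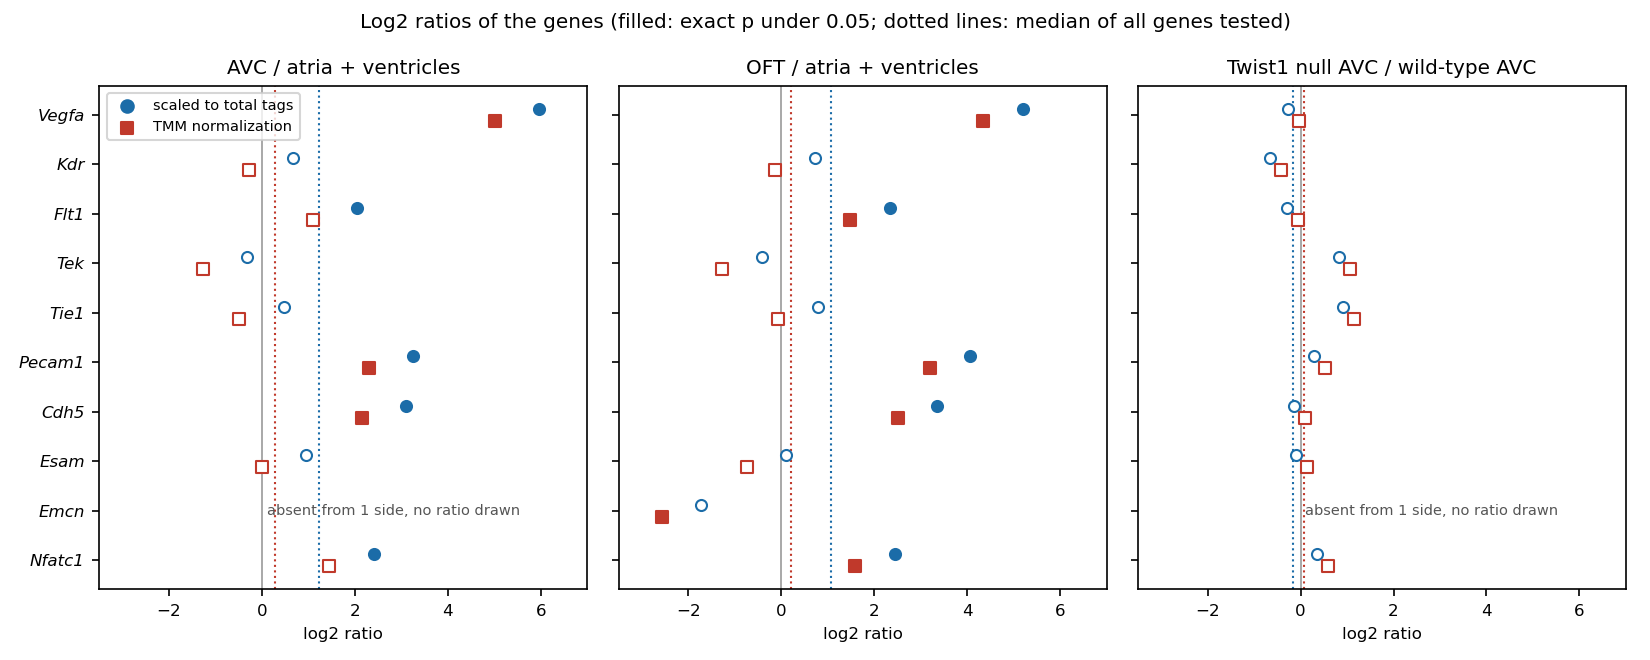
Log2 ratio of each gene in the 3 comparisons (horizontal axis), scaled to total tags (blue circles) or by TMM (red squares). Filled symbols have an exact p under 0.05, dotted lines are the medians of all genes tested, and no ratio is drawn for *Emcn* where the AVC has no tag. *Vegfa*, *Pecam1* and *Cdh5* are filled under both scalings in the AVC and OFT panels, and no drawn symbol is filled in the null panel.

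Ratios between genes of a library do not depend on library totals. For each 100 *Kdr* tags the AVC held 82.0 *Cdh5* tags (interval 73.2 to 91.9), the OFT 95.2 (84.7 to 107), the atria 13.3 (9.31 to 18.5), the ventricles 17.0 (12.5 to 22.8) and the null 116 (106 to 127). For *Tek* these were 53.5 (46.9 to 60.9), 48.3 (41.9 to 55.7), 97.7 (82.9 to 115), 115 (98.5 to 134) and 149 (137 to 162). The chambers thus hold less *Cdh5* and more *Tek* per *Kdr* tag than the AVC and the OFT, and the null holds more of both than the wild-type AVC. All *Tek* tags begin with T, and no *Kdr* or *Cdh5* tag does. Without haemoglobin, tags beginning with T made up 15.3% (AVC), 16.3% (OFT), 19.6% (atria), 21.2% (ventricles) and 33.8% (null) of one-gene tags. Their part in the *Tek* ratio was not tested. *Pecam1* went from 25.4 tags per 100 *Kdr* tags in the AVC and 42.9 for the OFT to 3.99 and 4.42 for the atria and the ventricles. The 9 genes other than *Vegfa* summed to 469 TPM for the AVC, 529 for the OFT, 194 for the atria, 254 for the ventricles and 529 for the null, and *Kdr* supplied 33.3% and *Tek* 32.6% of that sum in the atria, against 23.6 and 12.6% for the AVC.

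Of the other VEGF and angiopoietin genes, *Ptprb* and *Nrp1* were high in the AVC and the OFT, *Nrp2* was high in the OFT, and *Angpt1* was high in the chambers and the null. Against the chambers the AVC had 5 of 10 higher and 3 lower, with a median log2 ratio of 0.94, and in the OFT 4 of 9 were higher and 1 lower, with a median of 1.30. With TMM the AVC comparison had 3 higher and 3 lower, and the OFT comparison had 3 higher and 2 lower. *Ptprb*, the phosphatase of endothelial junctions that acts on TIE2, stood at 85.1 TPM for the AVC, 115 for the OFT, 3.64 for the atria, 3.08 for the ventricles and 25.1 for the null. It was 34.1 times the chambers in the OFT (exact p = 8.56e-09) and 25.2 times in the AVC (exact p = 6.70e-08, named after its values were seen), and 3.39-fold lower in the null than in the wild-type AVC (exact p = 0.0182). *Angpt1*, the activating TIE2 ligand, ran the other way, at 12.0, 13.5, 43.5, 36.5 and 46.9 TPM. It was 3.34-fold lower in the AVC than in the chambers (exact p = 0.0230), in the OFT by 2.98-fold (exact p = 0.0390), and it was 3.91-fold higher in the null than in the AVC (exact p = 0.0104). *Angpt2*, its context-dependent antagonist, was not listed in the AVC and stood at 4.47 TPM for the null, at least 5.43-fold higher (exact p = 4.95e-05). The co-receptor *Nrp1* stood at 33.7, 23.5, 4.50, 3.31 and 30.1 TPM in the same order and was 5.98 times the chambers in the OFT (exact p = 0.00135). *Vegfd* stood at 5.27 TPM (AVC) and 1.14 TPM (OFT) and was not listed in the chambers, and *Pgf*, at 0.988 TPM for the AVC, lies at the listing limit. In the null comparison 2 of the 10 genes were higher and 1 lower, under both scalings. Over all genes 43.4% were called higher and 8.12% lower in the AVC comparison, 40.6 and 8.88% in the OFT comparison and 11.9 and 12.7% in the null comparison, and a count near these shares is no result about a list.

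**Figure D5:**
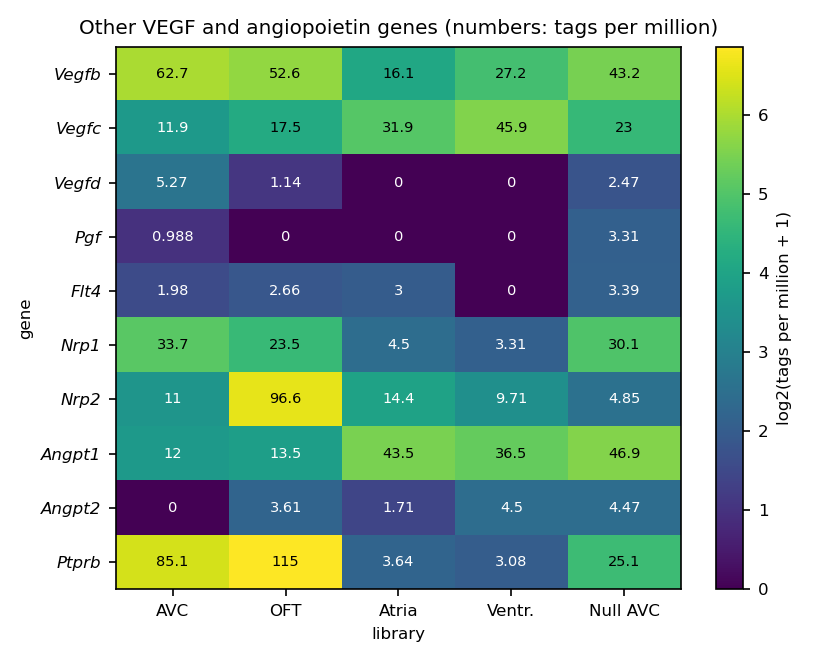
Levels of 10 further VEGF and angiopoietin genes (rows) in the 5 libraries (columns), coloured by log2(TPM + 1) with the TPM printed in each field. *Ptprb* and *Nrp1* are high in the AVC and the OFT, *Nrp2* in the OFT, *Angpt1* in the atria, the ventricles and the null.

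Among 28 other endothelial genes 26 could be tested in the AVC comparison, and 13 were higher and 0 lower, with a median log2 ratio of 1.48 (8 higher, 4 lower and 0.52 with TMM). In the OFT 11 of 26 were higher and 3 lower, with a median of 1.38 (8, 6 and 0.52 with TMM). In the null 1 of 27 was higher and 5 lower, with a median of -0.52 (1, 3 and -0.28 with TMM). For comparison, all genes gave 43.4% higher and 8.12% lower (AVC), 40.6 and 8.88% (OFT) and 11.9 and 12.7% (null), or 25.6 and 17.5, 26.2 and 17.7, and 14.9 and 9.36% with TMM. *Sox18*, a transcription factor of endothelial cells, was above the chambers by at least 6.58-fold in the OFT (exact p = 1.93e-06) and 4.84 times as high in the null as in the AVC (exact p = 0.0115). *Ramp2*, a receptor partner for adrenomedullin, was 3.87 times the chambers in the AVC (exact p = 0.00910) and *S1pr1*, the sphingosine phosphate receptor, 3.02 times (exact p = 0.0340), and neither call held with TMM. Lower in the null were *Fli1*, an endothelial ETS factor (3.55-fold, exact p = 0.0177), *Plvap*, a protein of endothelial fenestrae (3.52-fold, exact p = 0.0178), and *Calcrl*, the adrenomedullin receptor (2.91-fold, exact p = 0.0383, lost with TMM). The other two, named after their values were seen, were *Ramp2* (3.38-fold, exact p = 0.0180) and *Cd34*, a sialomucin of vessels (3.01-fold, exact p = 0.0395, lost with TMM). Some calls rest on low levels. *Adgrl4* (1.98 TPM) and *Sox18* (1.48 TPM) in the AVC and *Acvrl1* in the OFT (1.52 TPM) were listed against none in the chambers. *Robo4* and *Aplnr* were not listed in the OFT, against 3.15 and 3.37 TPM in the summed chambers.

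Around *Nfatc1*, 4 of 8 calcineurin and NFAT genes were higher and 1 lower in the AVC and in the OFT (3 higher and 1 lower with TMM), and 1 was higher and 1 lower in the null. Of all genes 43.4 and 40.6% were higher and 8.12 and 8.88% lower in these chamber comparisons, and 11.9 and 12.7% in the null comparison. *Nfatc4* was 19.0 times the chambers in the AVC (exact p = 5.90e-06) and 17.1 times in the OFT (exact p = 2.03e-05). *Nfatc3* was 3.58 and 4.04 times the chambers there (exact p = 0.0147 and 0.00760, neither called with TMM) and 4.95-fold lower in the null than in the AVC (exact p = 0.00255). *Ppp3r1*, the regulatory subunit of calcineurin, was 3.81-fold lower in the AVC than in the chambers (exact p = 0.0111), in the OFT by 2.78-fold (exact p = 0.0485), and it was 4.80 times as high in the null as in the AVC (exact p = 0.00306). Without tags beginning with T its OFT ratio turned, to a fitted 6.12 on the log2 scale (exact p = 0.0254). This fitted value is no bound on a fold. The OFT ratio of *Ppp3r1* thus depends on tags beginning with T, whose share differs between the libraries, and its AVC ratio uses the same chamber tags. How far its null ratio rests on such tags is not given. *Nfatc2* stood at 5.43 TPM (AVC) and 1.71 TPM (OFT) and was not listed in the chambers.

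Of 8 genes of the hypoxia-inducible factor pathway, which controls *Vegfa*, 3 were higher and 1 lower in the AVC, 3 higher and 3 lower in the OFT and 1 higher and 0 lower in the null. With TMM these were 1 and 2, 0 and 3, and 3 and 0. The all-gene shares were 43.4 and 8.12%, 40.6 and 8.88%, and 11.9 and 12.7%, and with TMM 25.6 and 17.5%, 26.2 and 17.7%, and 14.9 and 9.36%. *Vhl*, the ubiquitin ligase subunit that marks HIF for removal, was 4.43 times the chambers in the AVC and 4.15 times in the OFT (exact p = 0.00556 and 0.00820). The prolyl hydroxylase *Egln3* was 4.14 and 3.14 times the chambers (exact p = 0.0126 and 0.0443), and neither gene was called with TMM. Its relative *Egln2* was 3.73- and 3.96-fold lower (exact p = 0.0118 and 0.00872), called with TMM too. *Adm*, adrenomedullin, was 7.46 times the chambers in the AVC (exact p = 0.00157) and was not listed in the OFT. *Arnt*, the partner of the HIF alpha subunits, was 3.44 times as high in the null as in the AVC (exact p = 0.0195).

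Markers of other cell types moved between the same libraries. Of all genes 43.4% were called higher and 8.12% lower (AVC), 40.6 and 8.88% (OFT) and 11.9 and 12.7% (null). With TMM these shares were 25.6 and 17.5%, 26.2 and 17.7%, and 14.9 and 9.36%. A marker count near these shares is no result about a cell type. The 7 cushion mesenchyme markers summed to 2459 TPM for the AVC, 3364 for the OFT, 326 for the atria, 305 for the ventricles and 627 for the null, with 6 of 7 higher in the AVC and in the OFT, 4 of 7 lower in the null, and *Prrx1* at 0 in both chambers. The 6 erythroid markers summed to 2414, 3073, 215333, 46708 and 27353 TPM in the same order, with 6 of 6 lower in the AVC and in the OFT, 5 of 6 higher in the null, and *Slc4a1* at 0 for the AVC. The 8 cardiomyocyte markers summed to between 7936 TPM for the atria and 21325 for the OFT, and none was at 0. Of these 5 were higher and 0 lower in the AVC than in the chambers, led by *Myh6* (15.8 times), *Nppa* (13.3), *Tnnt2* (12.5) and *Myh7* (11.3). *Actc1* (0.653 times) and *Myl3* (0.641 times) went the other way and were called lower there only with TMM (exact p = 0.0328 and 0.0302). *Tnni1* (1.58 times) was not called. In the OFT 4 cardiomyocyte markers were higher. In the null 0 were higher and 1 lower, *Myh6*, a myosin heavy chain, which was 9.31-fold lower than in the wild-type AVC (exact p = 3.73e-05). The 7 megakaryocyte and leukocyte markers, cells that also make PECAM1, summed to 42.1, 7.97, 35.8, 40.0 and 7.17 TPM, with 3 higher and 1 lower (AVC), 1 and 3 (OFT) and 0 and 4 (null), and with *Ptprc* at 0 in 4 libraries other than the AVC. The 5 epicardial markers summed to 78.8 TPM for the OFT and up to 280 for the atria, where *Wt1* was at 0, with 1 higher and 0 lower (AVC), 1 and 3 (OFT) and 0 and 1 (null). The 5 smooth muscle and pericyte markers summed to 312, 1032, 153, 257 and 839 TPM, with 4 higher and 0 lower (AVC), 4 and 0 (OFT) and 1 and 2 (null), and *Myh11* at 0 outside the AVC. With TMM the AVC counts, higher then lower, were 5 and 0 (mesenchyme), 0 and 6 (erythroid) and 4 and 2 (cardiomyocyte). The other lists had 2 and 3 (megakaryocyte and leukocyte), 1 and 2 (epicardial) and 1 and 0 (smooth muscle). The OFT counts were 4 and 0, 0 and 6, 3 and 1, 1 and 4, 1 and 4, and 3 and 0 in this order. Among null counts only that of the megakaryocyte and leukocyte markers changed, to 0 and 3. The part of these cell types in the ratios above was not tested.

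The genes whose pattern was nearest to the mean of the 9 members other than *Vegfa* were *Ubxn7*, *Rnasek*, *Med14*, *Cnot7* and *Ppp1cb*, among 5120 genes with a mean of at least 20 TPM. Their Euclidean distances, over the 5 libraries of log2(TPM + 1) centred per gene, were between 0.155 and 0.209, where the members themselves lay between 0.703 (*Tie1*) and 3.17 (*Emcn*). The mean pattern, -0.94 for the atria, -0.56 for the ventricles, 0.30 for the AVC, 0.56 for the OFT and 0.64 for the null, lies farther from each member than from these 5 genes.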

How the data were processed

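Tag-seq libraries were made from pooled heart regions at E10.5: cDNA on oligo(dT) beads was cut with NlaIII, and the 17 bases after the site were counted. The authors deposited, for each library, tag types with their raw count, keeping those read more than 5 times. Tag types were matched here to the sense strand of 33363 RefSeq-linked transcripts of 24303 genes (GENCODE M21, GRCm38), and those of 1 gene (70.7 to 74.5% of tags) were summed per gene. TPM values used the total of deposited tags. Libraries were compared by exactTest of edgeR 4.0.16 in R 4.3.3, an exact and two-sided test, at a fixed dispersion of 0.12, the study's setting, on every gene with a tag in the libraries compared, and called at an unadjusted p under 0.05. With 1 library per group no spread can be estimated, so quasi-likelihood and DESeq2 tests could not be fitted. Size factors of DESeq2 1.42.0 were an alternative scaling. Where a gene was not listed, a bound, written as at least, allowed 5 tags per library for each tag type of the gene found in any library. Intervals cover counting error only and are exact Poisson or binomial at 95%.

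The members and the gene lists were chosen with earlier results of these data known. The named genes are every member, the genes with the 2 largest and the 2 smallest log2 ratios among those called in each further list and comparison, *Twist1*, and the 5 genes nearest to the mean pattern. Marker lists are given as summed levels. Scripts were tested on simulated counts. The alternatives covered scaling, dispersion, filters, tag sites, depth, first base and control library, 17 of them planned and 4 added after seeing the data.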

Additional observations from a re-analysis of the deposited data

Results flagged for a closer look

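*Emcn* was listed in the OFT (8 tags) but not in the AVC, and the test of this difference between the regions passed, with a fitted log2 ratio of 6.13 (exact p = 0.0254, adjusted p = 0.257 in edgeR's exact test with Benjamini-Hochberg adjustment). That fitted ratio is no bound, and no fold can be given, since the OFT level of 1.52 TPM lies below the 2.47 TPM that 5 tags for each of the gene's tag types would make in the AVC. All 8 OFT tags come from the tag type with 10 transcript bases.

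Antisense tags, which enter none of the levels above, exceeded the sense tags of 3 genes in the chambers. *Cdh5* antisense tags stood at 43.9 TPM in the atria and 43.6 TPM in the ventricles, all from 1 tag type, against 17.3 TPM for the AVC, 17.1 for the OFT and 7.09 for the *Twist1* null AVC. *Pecam1* antisense tags stood at 10.9 TPM in the atria and 10.7 TPM in the ventricles, and at 23.0 TPM in the null. *Esam* antisense tags stood at 7.50 TPM in the atria and 10.9 TPM in the ventricles. The origin of these tags was not tested.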

How the results depend on the processing

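No paired analysis was possible because each group has 1 library. Of 576 alternatives for the 30 member ratios, 495 kept direction and call, 18 lost the call, 12 gained one and 51 turned direction, none of the last on a called ratio, and 7 of 12 calls held under every alternative run. Of 783 alternatives for 42 ratios of other named genes, 647 kept direction and call, 134 lost the call and 2 turned. The cause of these changes was not tested. The count of members called was 3 in the AVC comparison with only tag types listed in every library compared, and 3 in the OFT comparison at dispersion 0.4. With only shared tag types 8 members and 8443 genes in all were tested in the AVC comparison. *Vegfa*, not listed in the atria, and *Emcn*, not listed in the AVC, could not enter it. In the null comparison it was 0 with at least 50 tags per gene, 0 at equal depth and 0 with only shared tag types, and 2 with the 3′-most site, 2 without tags starting with T and 2 without them under TMM. *Emcn*, the member called in the main null comparison, has 35 null tags and no listed AVC tag. The filter of 50 tags and the shared tag types thus left *Emcn* out before any test, and only at equal depth was its call lost on testing. Turned log2 ratios with TMM were -0.49 for *Tie1*, -0.28 for *Kdr* and -0.0045 for *Esam* in the AVC comparison, -0.0695, -0.14 and -0.75 in the OFT comparison, and 0.0858 for *Cdh5* and 0.14 for *Esam* in the null comparison. With DESeq2 size factors the same ratios were -0.52, -0.32 and -0.0409, then -0.0884, -0.16 and -0.77, then 0.0808 and 0.14. Without tags starting with T, *Esam* was -0.12 in the OFT comparison, and in the null comparison *Pecam1* was -0.47, *Cdh5* 0.20, *Nfatc1* -0.39, *Esam* 0.26 and *Vegfa* 0.0797. Without them under TMM, *Tie1* was -0.37, *Kdr* -0.43 and *Esam* -0.15 in the AVC comparison, *Kdr* -0.25 and *Esam* -0.85 in the OFT comparison, and *Pecam1* -0.23, *Cdh5* 0.44, *Flt1* 0.0543, *Nfatc1* -0.15, *Esam* 0.49 and *Vegfa* 0.32 in the null comparison. *Ppp3r1* in the OFT comparison was 6.12 without tags starting with T and 5.73 under TMM as well. With the 3′-most site, *Esam* was -0.73 (AVC) and -7.14 (OFT), and *Pecam1* -0.75 and *Nfatc1* -1.39 (null). With only shared tag types *Esam* was -0.73 (AVC) and 0.44 (null), with more than 10 tags per tag type 0.42 (null), and without haemoglobin in the totals -0.10 (OFT). Against the atria only, *Esam* was -0.0673 (OFT), and under TMM *Kdr* was -0.20 and *Esam* -0.20 (AVC), and *Kdr* -0.0533 and *Esam* -0.94 (OFT). Against the ventricles only under TMM, *Tie1* was -0.66 and *Kdr* -0.13 (AVC), and *Tie1* -0.23 and *Esam* -0.26 (OFT). Without the repeat tag type *Nfatc1* was -0.66 (null). Over all genes, 5427 were higher and 1015 lower in the AVC comparison, 5056 and 1106 in the OFT comparison and 1539 and 1648 in the null comparison. At dispersion 0.4 these were 2534 and 338, 2420 and 417, and 506 and 306, with TMM 3206 and 2193, 3257 and 2201, and 1926 and 1213, with DESeq2 size factors 3147 and 2238, 3240 and 2231, and 1919 and 1222, and with only shared tag types 2293 and 690, 2081 and 690, and 753 and 1504. The null counts were also 2443 and 3005 at dispersion 0.05, 656 and 510 with adjusted p, 935 and 1152 with at least 50 tags per gene and 1213 and 1828 at equal depth, and the OFT counts 3394 and 698 with at least 50 tags per gene. Among 11559 genes tested with the 3′-most site the null counts were 1504 and 1997. Among 11618 genes tested without tags starting with T they were 1298 and 1544, and 1644 and 1241 under TMM.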
